A study of Mus musculus with 21 samples.

Results

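Chromatin domains of mouse embryonic stem (ES) cells were compared between the 2 Hi-C libraries of the series made from these cells, and with the list deposited for the combined ES libraries. The members are all called domains of the 2 library lists on chromosomes 1 to 19, 1775 in library 1 and 1778 in library 2. The combined list holds 1978 on the same chromosomes. They belong to 6 domain lists with 10966 domains in all, the other 3 being from Th2 cells. The cells are R1 ES cells of strain 129X1 x 129S1, with no treatment named for them, and were grown on feeder-coated dishes. The labels do not say whether feeder cells were removed before crosslinking. Both libraries were made by 3e Hi-C, in which formaldehyde-fixed chromatin is cut with the 3 restriction enzymes CviQ I, CviA II and Bfa I, ligated and sequenced in pairs. They differ in the labels only by their number, and nothing there says that they came from separate cultures. The other 19 of the 21 samples of the series are Th2 or EL4 samples.

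Hi-C counts how often pairs of loci are ligated to each other, and so how often they lie close together in the nucleus. A topological domain is a chromosome segment in which contacts within the segment outnumber contacts with its neighbours. Domain edges in mammals are often bound by CTCF and by cohesin, the ring complex that extrudes loops until CTCF halts it, and they limit which enhancers reach which promoters. In ES cells, large parts of the genome lie in such domains, and edges called in this cell type have served as a reference map. The lists used here hold the positions of domains and no contact counts, reads or expression. The labelled cell type could therefore not be checked against marker genes, and the depth behind each domain is unknown. No genome or annotation of the build mm9 was used, so no gene is named and no sequence is given for an edge.

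With 1 list per library there is no test of a difference between the libraries. Values are given for each library, with a mean and standard deviation (SD) over both where a level is described. Domains, edges and gaps of 1 list are not replicates of each other, since a change of 1 edge alters the domains on both of its sides. All starts lie on a grid of 40 kb, so 40 kb is the smallest difference that can be seen. Coordinates are those of mm9.

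The libraries held nearly the same number of domains with nearly the same lengths. The number was 1776.5 ± 2.12 (SD, n = 2), a difference of 3 domains. The median length was 880 kb in library 1 and 920 kb in library 2, which is 1 grid step. The quartiles were 560 and 1480 kb in both, and the shortest domain measured 160 kb in both. Domains of 400 kb or less numbered 242 (13.6%) in library 1 and 250 (14.1%) in library 2. Domains of 2 Mb or more numbered 226 and 233, and held 31.9% and 32.3% of the covered bases. In both libraries 26 domains reached 4 Mb or more. The cumulative plot of lengths shows the library curves nearly on each other. The combined list was more finely divided, with a median of 800 kb, 326 domains (16.5%) of 400 kb or less and 205 of 2 Mb or more. On each of the 19 chromosomes the combined list had more domains than either library.

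**Figure D1:**
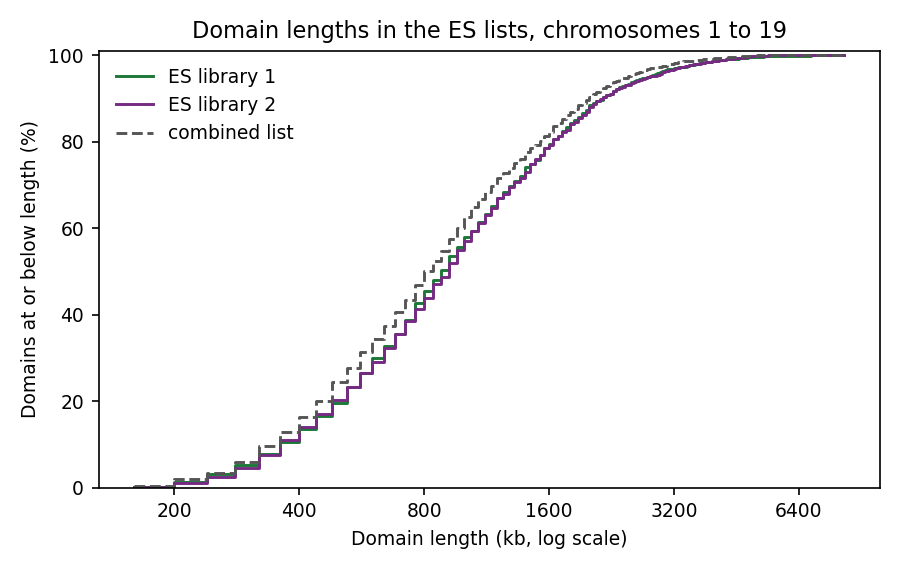
Share of domains (vertical axis, percent) at or below each length (horizontal axis, kb, log scale) for ES library 1, ES library 2 and the combined ES list on chromosomes 1 to 19. The 2 libraries nearly coincide, with medians of 880 and 920 kb, and the combined list lies to their left with a median of 800 kb.

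The longest domains were not the same in the 2 libraries. The longest of library 1 spanned 8.24 Mb at chr15:15200001-23440000. Library 2 held 3 domains there, of 1.96, 0.92 and 2.44 Mb, which covered 54.9% of it. The combined list also held 3 domains in that region, of 1.96, 0.8 and 2.44 Mb. The longest of library 2 spanned 7.20 Mb at chr14:80640001-87840000. In library 1 this region met 3 domains, of 4.92, 0.80 and 2.36 Mb, which covered 66.7% of it, and in the combined list 3 others covered 58.3%. The longest domain of the combined list, 5.40 Mb at chr1:146240001-151640000, was identical in library 2 and started 120 kb later in library 1 (chr1:146360001-151640000).

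Domains covered 2014 Mb in library 1 and 2028 Mb in library 2, or 86.4% and 86.7% of the span between the first and last edge of each chromosome. Bases in domains of both libraries came to 1900 Mb, which is 88.7% of the 2141 Mb covered in either. Since each library covered most of the span, much of this overlap would arise wherever the domains lay. The share due to coverage alone was not computed. A further 114 Mb lay in domains of library 1 alone and 127 Mb in domains of library 2 alone. Within the joint span, 202 Mb lay in no domain of either library. Most of the one-sided stretches were short, whereas most of the one-sided bases lay in few long stretches. Of 717 stretches covered by library 1 alone, 410 measured 40 kb, while the 130 over 200 kb held 66.8% of these bases. Of 610 stretches covered by library 2 alone, 326 measured 40 kb, while the 119 over 200 kb held 74.4%. Stretches of 1 Mb or more numbered 16 for library 1 and 30 for library 2.

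The longest one-sided stretches show how a single call changes the map. At chr1:26200001-30360000, library 2 held 4160 kb inside 1 domain (chr1:26200001-30680000) where library 1 had no domain, and the combined list covered 99.0% of the stretch. For library 2 the next were chr4:49760001-52400000 and chr6:9200001-11840000, each of 2640 kb inside 1 domain. The combined list covered 0 kb of both. For library 1 the longest were chr12:93080001-96400000 and chr15:17160001-20480000, each of 3320 kb, of which the combined list covered 34.9% and 0%. The next was a domain of 2259 kb that closes the chromosome at chr8:129480001-131738871, which neither library 2 nor the combined list had. Of these 6 stretches, the combined list thus left 4 without a domain.

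An edge is a distinct start or end in a list, and abutting domains share 1 edge. Library 1 had 2790 edges and library 2 had 2892. Within 40 kb, 2202 edges of library 1 (78.9%) had an edge of library 2, and 2270 edges of library 2 (78.5%) had one of library 1. As a background, 13.3% of all grid positions lay within 40 kb of a library 2 edge and 13.0% within 40 kb of a library 1 edge. At the same position stood 1578 edges, or 56.6% of library 1 and 54.6% of library 2. Grid positions that carry an edge made up 4.92% for library 2 and 4.75% for library 1. Beyond 40 kb the share rose slowly, to a mean of both directions of 82.6% within 80 kb and 86.9% within 200 kb. Thus 356 edges of library 1 and 388 of library 2 had no counterpart within 200 kb. The share of all grid positions near an edge also rises with distance. It was not computed beyond 40 kb, so how far this rise exceeds that background is unknown.

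The share of edges that recurred differed with what they bordered. Of abutting edges, 88.8% of the 760 in library 1 and 88.9% of the 664 in library 2 had an edge of the other library within 40 kb. Most of these stood at the same position, 81.7% and 82.1% of all abutting edges. An abutting edge is both an end and a start, and any start or end of the other library counts here. It is thus counted as shared also where the other library has a gap beside it. At the same position, 412 abutted in both libraries, 54.2% of those of library 1 and 62.0% of those of library 2. Edges of 40 kb gaps were shared as often, 89.1% of 570 and 90.7% of 690, but fewer stood at the same position, 59.5% and 58.3%. The 2 sides of such a gap are 1 grid step apart, so a single edge of the other library can match both. For gaps of 80 to 200 kb the shares within 40 kb were 76.0% of 770 and 76.7% of 798. For edges of longer gaps they were 62.3% of 652 and 59.3% of 702, with 36.8% and 35.0% at the same position. The order was the same in both directions, as the bar chart by kind of edge shows.

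**Figure D2:**
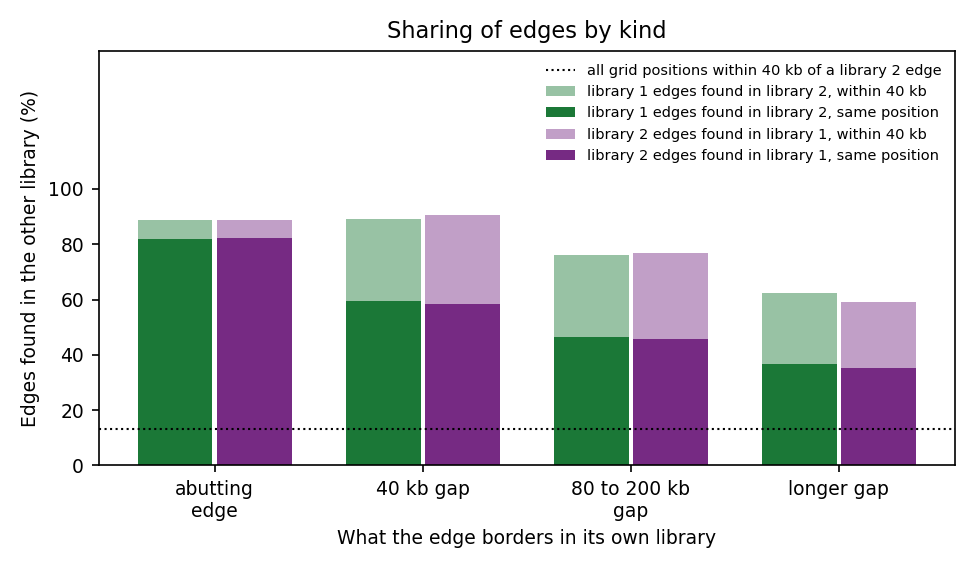
Percent of edges of each library found in the other (vertical axis), by what the edge borders in its own library (horizontal axis). Full bars are edges within 40 kb, the dark lower part is edges at the same position, and the dotted line is the 13.3% of all grid positions within 40 kb of a library 2 edge. Sharing is near 89% for abutting edges and near 60% for edges of gaps over 200 kb. Any start or end of the other library counts, also where it borders a gap there.

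Where an edge could be paired between the libraries and had moved, it had mostly moved by 1 grid step. Starts of both libraries were paired with each other, and likewise ends, where each was the other's nearest within 200 kb. This gave 1518 paired starts and 1509 paired ends, out of 1775 of each kind in library 1 and 1778 in library 2. Edges without a pair are left out of the shares that follow, which the pairing rule thus raises. The position was the same for 997 starts (65.7%) and 971 ends (64.3%), and within 40 kb for 91.7% and 91.2%. Of starts that differed by 40 kb, 199 lay inward in library 2, shortening the domain, and 196 lay outward. Of ends that differed by 40 kb, 250 lay inward in library 2 and 155 outward. Starts thus moved about equally in both directions, while ends of library 2 lay more often inward. Over all paired edges the mean shift was −1.63 kb for starts and −5.38 kb for ends, far below 1 grid step.

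**Figure D3:**
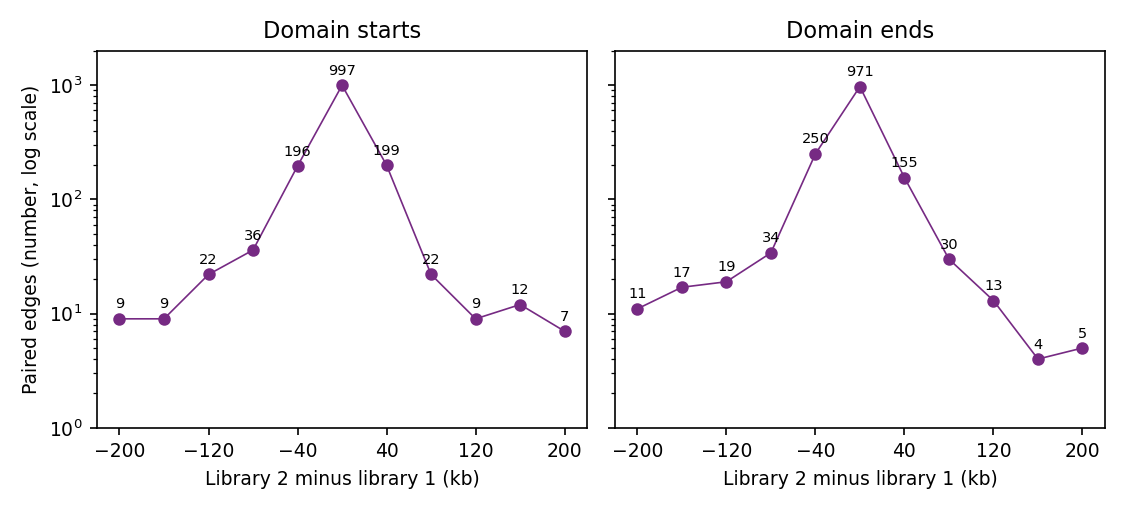
Number of paired domain starts (left) and ends (right), on a log scale, by the position in library 2 minus that in library 1 (kb, in steps of 40 kb). Each point carries its number, and 997 starts and 971 ends stand at 0. For starts the counts at −40 and 40 kb are 196 and 199, and for ends they are 250 and 155.

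The libraries also differed in how neighbouring domains met. Library 1 had 760 abutting edges and 996 gaps, while library 2 had 664 abutting edges and 1095 gaps. Abutting edges were 27.2% of all edges in library 1 and 23.0% in library 2 (25.1% ± 3.03, SD, n = 2). Library 1 had more of them on 17 of 19 chromosomes, and library 2 had more gaps on 17. The exceptions for abutting edges were chromosome 2, with 54 against 55, and chromosome 12, with 33 against 37. The widest difference was on chromosome 7, with 38 abutting edges in library 1 and 23 in library 2, beside 51 and 63 gaps. Domains that abutted a neighbour on both sides numbered 344 (19.4%) in library 1 and 269 (15.1%) in library 2. Those with a free end on both sides numbered 599 (33.7%) and 719 (40.4%). Their median lengths were 760 and 800 kb for the former, and 960 kb in both libraries for the latter.

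Much of this difference lay within 1 grid step. Gaps of exactly 40 kb numbered 285 in library 1 and 345 in library 2. Abutting edges and 40 kb gaps together numbered 1045 and 1009, a difference of 36 in place of 96. Of the 760 junctions that abutted in library 1, 431 (56.7%) abutted in library 2 within 40 kb and 155 (20.4%) were 40 kb gaps there. A further 89 (11.7%) lay at a longer gap or outer edge, 83 (10.9%) inside a domain and 2 outside domains. Of the 664 junctions of library 2, 431 (64.9%) abutted in library 1, 90 (13.6%) were 40 kb gaps and 72 (10.8%) lay inside a domain. Exact agreement was frequent among those that abutted in both, with 412 at the same position. All 412 were abutting edges at that position in the combined list too.

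**Figure D4:**
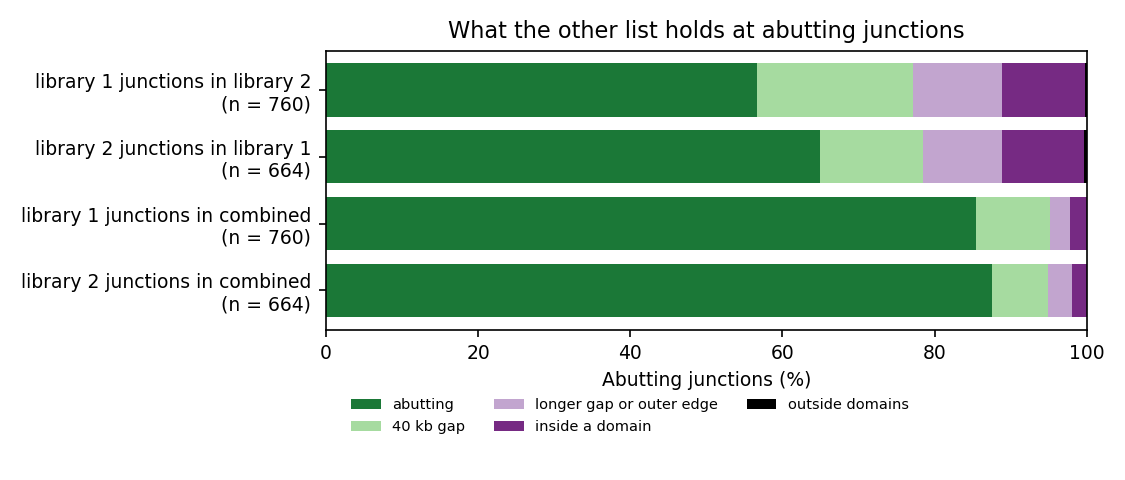
Abutting junctions of each library (percent, horizontal axis) by what the other library or the combined list holds within 40 kb of the same place. Of library 1 junctions 56.7% also abut in library 2 and 20.4% are a 40 kb gap there, and 85.4% abut in the combined list.

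Gaps were short in both libraries, with a median of 120 kb and quartiles of 40 and 280 kb. They summed to 317 Mb in library 1 and 312 Mb in library 2, of which 202 Mb were gap in both. That is 63.8% of the gap bases of library 1 and 64.8% of those of library 2. Over the span as a whole, domains covered 86.4% in library 1 and 86.7% in library 2, and gaps the rest. A gap with both of its edges within 40 kb in the other library was found for 494 gaps, 49.6% of library 1 and 45.1% of library 2, and 220 of them were identical. By this rule, gaps of 80 to 200 kb recurred most often, at 59.5% and 58.4%. By bases, the share that was gap in the other library was 64.5% and 63.2% for these, 65.7% and 59.5% for gaps of 240 to 960 kb, and 62.8% and 73.0% for gaps of 1 Mb or more. Of the 40 kb gaps, 48.4% of library 1 and 39.1% of library 2 recurred. Another 31.6% and 44.9% of them were abutting junctions in the other library. A single domain of the other library covered 106 gaps (10.6%) of library 1 and 117 (10.7%) of library 2 whole.

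Gaps of 1 Mb or more numbered 75 in library 1 and 69 in library 2, and held 147 and 127 Mb. Only 22 recurred with both edges within 40 kb, while 40 and 38 more overlapped a gap of the other library. The longest gap of both was on chromosome 7, chr7:39360001-46400000 (7040 kb) in library 1 and chr7:39280001-46400000 (7120 kb) in library 2. On the same chromosome the gaps chr7:20680001-24080000 (3400 kb) and chr7:7280001-10640000 (3360 kb) were identical in both. The second longest of library 1, chr1:25960001-30360000 (4400 kb), is the one of which the library 2 domain described above covers 4160 kb. On chromosome 17, library 1 left chr17:59040001-62640000 (3600 kb) open and library 2 chr17:59000001-62400000 (3400 kb).

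Domains were matched where each covered at least 80% of the other. By this rule 1181 domains matched, 66.5% of library 1 and 66.4% of library 2. Of these, 499 were identical, 275 had the same start and another end, 271 the same end and another start, and 136 differed at both ends. The identical domains had a median length of 760 kb and covered 490 Mb. The share of domains that would match through coverage and length alone was not computed, here or for the combined list. Domains of 440 to 800 kb and of 840 kb to 1.6 Mb matched most often, at 67.9% and 70.8% in library 1 and 70.2% and 69.8% in library 2. Those of 160 to 400 kb matched at 57.9% and 56.8%, and those over 1.6 Mb at 63.2% and 61.7%. A shift of 1 grid step takes a larger part of a short domain, so short domains meet this rule less easily. Identical domains made up 33.5% and 32.4% of the shortest class, and 22.0% and 21.7% of domains over 1.6 Mb. With both edges within 40 kb as the rule, the shares were 56.6% and 56.8% for the shortest class and 45.1% and 44.8% for domains over 1.6 Mb. The longest run of consecutive identical domains held 6, at chr1:69240001-75600000 (6.36 Mb), with lengths of 2960, 680, 1000, 320, 200 and 800 kb. Of these 6 domains, 5 were identical in the combined list.

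Division of a domain in 1 library and not in the other was about as frequent in both directions. Library 2 held 104 domains of library 1 as 2 or more whole domains with the outer edges within 40 kb. Library 1 held 96 domains of library 2 in this way. Most were divided in 2, 96 and 91 respectively, and none in more than 4. The new inner borders of the 104 were abutting in 49 cases and gaps in 63, those of the 96 abutting in 49 cases and gaps in 53. Divided domains had median lengths of 1620 kb in library 1 and 1420 kb in library 2, above the medians of 880 and 920 kb of all domains. The rule itself favours long domains, since 2 or more whole domains, none shorter than 160 kb, must fit between the outer edges.

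The longest divided domains differed in how much was lost between the pieces. The domain chr12:92600001-99440000 of library 1 (6840 kb) was left in library 2 as 3 pieces of 480, 600 and 1040 kb with 4720 kb of gap. By contrast, chr17:89040001-95272651 (6233 kb) lost only 40 kb between pieces of 1920 and 4273 kb. The domain chr3:8520001-13880000 (5360 kb) was held as 1840 and 3200 kb with 280 kb between them. Of library 2, chr8:38200001-43000000 (4800 kb) was held in library 1 as abutting domains of 3040 and 1800 kb, meeting at 41240000. The domains chr3:20440001-25160000 (4720 kb) and chr1:124280001-128840000 (4560 kb) were held as 2 pieces each, with 1880 and 560 kb of gap.

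The combined list was made from these cells and is not independent of the library lists, and the sources used here do not give how the libraries were combined. It had 3040 edges, 916 abutting edges and 1043 gaps. Abutting edges were thus 30.1% of its edges, above both libraries. Within 40 kb it held 97.5% of the library 1 edges that library 2 shared and 97.8% of the library 2 edges that library 1 shared. Of edges that the other library lacked, it held 347 of 588 (59.0%) from library 1 and 352 of 622 (56.6%) from library 2. As a background, 14.1% of grid positions lay within 40 kb of a combined edge and 5.18% carried one.

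Read from the combined list, 2167 of its edges (71.3%) had an edge of both libraries within 40 kb, 340 (11.2%) of library 1 only, 332 (10.9%) of library 2 only and 201 (6.61%) of neither. The counts by exact position were nearly equal, with 560 standing where library 1 alone and 561 where library 2 alone had an edge. Of the 201 edges found in neither library, 155 lay inside a domain of both, 25 inside a domain of 1 and 21 outside the domains of both. Of the whole span, 81.1% lay in domains of both libraries, so the 155 are near that background. This background counts all positions, also those within 40 kb of a library edge, where none of the 201 can lie. Abutting edges of the combined list had support in both libraries in 81.9% of cases, against 54.2% for edges of gaps over 200 kb. Of its domains, 1111 (56.2%) matched a domain of both libraries, 328 of library 1 only, 303 of library 2 only and 236 (11.9%) of neither. Domains matched in both had a median of 880 kb and those matched in neither 680 kb.

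Where the libraries differed by a division, the combined list mostly held the divided form. Of the 104 domains divided in library 2, it held 80 divided and 15 whole, with 5 that met both rules and 4 that met neither. Of the 96 divided in library 1, it held 79 divided and 12 whole, with 4 that met both rules and 1 that met neither. Against all domains, it divided 162 of library 1 and 170 of library 2, whereas only 19 and 25 of its own domains were divided in library 1 and library 2. Of the 499 domains identical in both libraries, 458 (91.8%) were identical in the combined list.

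Edge sharing between the libraries was followed over chromosomes. The mean of both directions of the share of edges within 40 kb had a median of 79.6% and ran from 72.2% on chromosome 3 to 84.1% on chromosome 9. On chromosome 3, library 1 had 171 edges and 104 domains against 153 and 94 in library 2, the largest difference in domain number. Of its edges, 67.8% of library 1 and 76.5% of library 2 were shared. On chromosome 9, with 107 and 106 domains, 83.7% and 84.5% were shared. Chromosomes 7 and 19 lay near the low end, at 73.7% and 73.8%. Library 1 had more domains on 9 chromosomes and library 2 on 10. The first domain started at the same position on 9 of 19 chromosomes, and the last ended at the same position on 8. Several of these shared last ends, such as 95272651 on chromosome 17, lay off the 40 kb grid. Whether they are the end of the chromosome sequence and not a called edge was not tested.

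**Figure D5:**
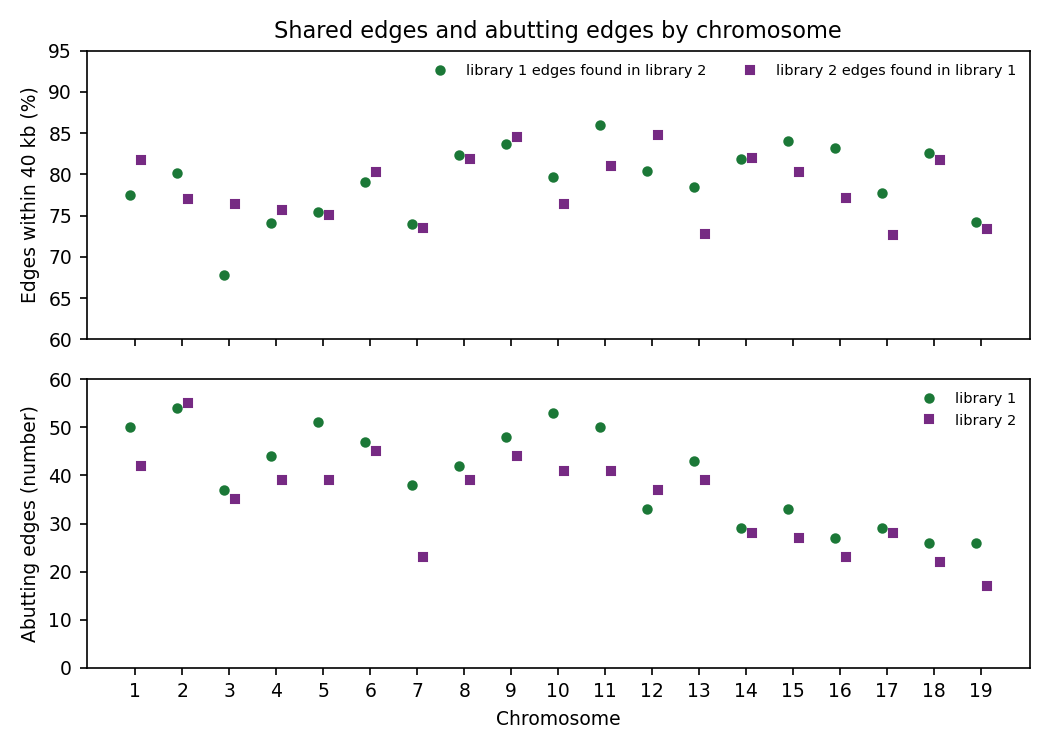
Upper panel, percent of edges of each library with an edge of the other within 40 kb (axis from 60 to 95%), and lower panel, number of abutting edges, for chromosomes 1 to 19. Chromosome 3 has the lowest mean share of edges (72.2%) and chromosome 9 the highest (84.1%). Library 1 lies above library 2 in abutting edges on all chromosomes but 2 and 12.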

How the data were processed

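Per the submitters' processing notes, reads were aligned with Bowtie2 to mm9. The library lists are named as HMM (hidden Markov model) domains, and the sources used here do not otherwise give the domain caller, its settings or read numbers. For each library and for the combined libraries, the authors deposited a list of chromosome, start and end in base pairs, with no score. Groups and library numbers follow the sample titles. Positions are printed 1-based. All per-sample columns of these lists were read, chromosome X only as an alternative.

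Edges were shared at a distance of up to 40 kb, and domains matched at a reciprocal overlap of at least 80%. The background is the share of 40 kb grid positions, over the span of the 3 ES lists, near an edge. Functions were tested on simulated lists with known moved edges and divided domains. The members, measures and regions to be named were chosen with earlier results of these data known. The named regions are the longest domain of each list, the 3 longest one-sided stretches and divided domains in each direction, the chromosomes with the lowest and highest sharing, and the longest run of identical domains. Long gaps and chromosomes 2, 7, 12, 17 and 19 were named after their values were seen. Alternatives were a tolerance of 0 or 80 kb, an overlap of 50% or 90%, domains of 200 kb or longer, chromosome X, 40 kb gaps as abutting, each library alone and, chosen after seeing the data, edges without the positions that repeat every 2 Mb. Python 3.11.15, numpy 2.4.6, pandas 2.3.3, scipy 1.17.1 and matplotlib 3.10.9 were used.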

Additional observations from a re-analysis of the deposited data

How the results depend on the processing

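Of the 31 values recomputed under an alternative with both libraries, 21 stayed within the SD of the libraries, the 95% binomial interval or, for counts, 1.5 times the main value, and 10 moved. With 2 libraries, each alone lies within the SD of their mean whatever the data, so such values are not counted. The share of edges found in both libraries was 55.6% at the same position and 82.6% within 80 kb, against 78.7%. The share of combined-list edges found in both was 50.1% and 74.2%, against 71.3%. Matched domains were 84.7% at an overlap of 50% and 58.4% at 90%, against 66.5%. With 40 kb gaps counted as abutting, abutting junctions came to 36.2% of the unchanged number of distinct edges. Library 1 still had the larger share, 37.5% against 34.9%. Both sides of each 40 kb gap stayed in that number of edges, so these shares are not directly comparable with the main 25.1%. The median gap was then 200 kb, and the difference in the number of gaps fell from 99 to 39. The mean number of gaps fell from 1045.5 to 730.5, which the wide rule for counts still takes as unmoved. The limit of 200 kb removed only the domains of 160 kb, 3 in library 1 and 4 in library 2. Values under that limit could therefore hardly move. With chromosome X, domains covered 2132 Mb per library, a rise that the bases of the added chromosome account for. Of covered bases, 88.2% were then covered in both, against 88.7%, and the cause of this was not tested. The median length was then 920 kb in both libraries, so the difference of 40 kb was gone. Binomial intervals treat edges as independent, which they are not. Edges shared and domains matched between the libraries were counted in both directions, which narrows their intervals. The interval for covered bases takes 40 kb bins as independent, which they are not either. No paired analysis was possible because both libraries belong to 1 group and no test was made. Read depth per library is unknown, so its part in the differences was not tested.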

Other observations

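Edges were more frequent at positions that repeat every 2 Mb. Edges were sorted by their place within consecutive 2 Mb units, which holds 50 grid positions. At the place 1 Mb into the unit, counted from the chromosome's origin, stood 88 edges of library 1, where the other 49 places had a median of 54 and at most 78. Library 2 had 107 edges there, against a median of 57 and at most 73, and the combined list 103, against a median of 60 and at most 79. The first domain of a chromosome started at such a position on 6 chromosomes in library 1 and on 9 in library 2. Of these edges, 66 stood at the same position in both libraries, out of 88 (75%) in library 1 and 107 (61.7%) in library 2. Elsewhere 56.0% of library 1 edges and 54.3% of library 2 edges did. Of the domains of exactly 2 Mb, 5 of 20 in library 1 and 10 of 21 in library 2 lay on these positions. They are among the domains of 2 Mb or more counted above. In the Th2 lists the same place also held the most edges, 78 and 80 in the libraries and 94 in the combined list, against medians of 51, 50 and 51. The cause was not tested. Without these edges the share within 40 kb was 78.0% between the ES libraries.

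Junctions that abutted in 1 library and were a 40 kb gap in the other did not open evenly on both sides. Of the 155 that were open in library 2, the domain before the junction ended earlier in 88 and the domain after it started later in 66. Of the 90 that were open in library 1, the domain before ended earlier in 36 and the domain after started later in 53. In library 2 the gap thus more often lay before the position of the junction, and in library 1 after it. In each direction 1 junction lay 40 kb outside the gap. These earlier ends and later starts are also among the edges reported above as differing by 40 kb, so this is not a separate difference. With 1 list per library the asymmetry was not tested.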
